A study of Mus musculus with 8 samples.

Results

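The genes described here are 32 enzymes and regulators of cholesterol and fatty acid synthesis, followed in cultured cells of the mouse mammary carcinoma line D2A1 and of its sublines D2A1-m1 and D2A1-m2. They were listed by their place in the pathways and comprised 18 enzymes of sterol synthesis, 6 genes of sterol sensing and traffic, and 8 enzymes of fatty acid synthesis. A gene was followed through bead array probes annotated with its symbol, and a probe was kept where any of the 8 arrays gave it a detection p-value no higher than 0.01. By this rule 28 of the 32 genes were measured, among 9017 genes tested in all. Acat2, Hmgcs1 and Fdft1 were not analysed here, and the Acaca probe did not pass the detection limit on any array.

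D2A1 is a poorly metastatic line derived from a mammary tumour of a BALB/c mouse. Each subline came from D2A1 cells that were grown as an orthotopic tumour in its own BALB/c host, recovered from the lungs, and passaged further by injection into the tail vein and outgrowth from the lung. The arrays compared cultures of 3 D2A1, 2 D2A1-m1 and 3 D2A1-m2 samples, described by the study as independent biological replicates, in order to find how the metastatic sublines differ in gene expression from the parental cells and from each other. No line carried an engineered allele in the labels and no culture was treated. Routine culture of all lines was in a medium with foetal serum, per the study's methods. Each subline is a single derivation, so a difference between lines cannot be told apart from one between these particular derivations. The arrays were run in 2 batches. Replicate 1 of every line and replicate 2 of D2A1 were run in batch 1. The remaining arrays, which were replicate 2 of both sublines and replicate 3 of D2A1 and D2A1-m2, formed batch 2.

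Cells build cholesterol from acetyl-CoA through the mevalonate pathway, which passes through mevalonate, isoprenoid units, squalene and lanosterol, and they build fatty acids from the same precursor. Transcription of both branches is driven by the SREBP proteins, the products of Srebf1 and Srebf2. When sterol is plentiful, Insig proteins hold the SREBP escort Scap in the endoplasmic reticulum, and when sterol is scarce the SREBPs are carried to the Golgi apparatus, cut, and enter the nucleus. Cultured cells also take up sterol from serum lipoproteins.

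Values are log2 signals after background correction and quantile normalisation. A gene counted as called where its change reached 1.5-fold and its adjusted p in limma (Benjamini-Hochberg, all 9017 genes) was under 0.05. Changes came from a fit with a term for the batch, so that they need not equal the difference of the plain means. From 13419 to 14942 probes were detected per array, with 13419 to 13768 in batch 1 and 14387 to 14942 in batch 2. Of the epithelial keratins, Krt8 and Krt18 were detected in all 3 lines, whereas Epcam, Cdh1 and 5 other listed markers of mammary epithelium were not detected on any array. None of the 8 adipocyte and 7 endothelial markers with a probe was detected on any array, the adipocyte set including Adipoq, Plin1 and Fabp4. Of 9 lung fibroblast markers 3 were detected, with a summed linear signal of 77.3 to 90.3 in D2A1, 115 to 128 in D2A1-m1 and 60.8 to 73.0 in D2A1-m2, and of 8 lung epithelial markers only Ager was detected, in D2A1. Of 8 leukocyte markers with a probe, Ptprc, Lyz2, Csf1r and Cd3e were not detected on any array. The sum of Cd14, Coro1a, Laptm5 and Lyz1 was 121 to 288 in D2A1, 411 to 735 in D2A1-m1 and 324 to 461 in D2A1-m2. Of these 4, only Cd14 was detected in D2A1, Cd14 and Coro1a in D2A1-m1, and all 4 in D2A1-m2. The part of such cells in the results was not tested. On arrays of whole cultures, fewer expressing cells and less RNA per cell cannot be told apart.

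Within D2A1, replicate 2 was low for the genes described here. It was the lowest of the 8 arrays for 19 of the 28 genes, compared with 16.3% of all genes, and the lowest D2A1 array for 24, compared with 34% of all genes. The median deviation of the 15 measured sterol enzymes from each gene's own mean was -0.64 on this array, and from -0.16 to 0.44 on the other arrays. Over all tested genes, its correlations with the other D2A1 arrays were 0.984 and 0.976. Those of all pairs of the same line ran from 0.976 to 0.994. Its pair with D2A1 replicate 3 was the lowest of these, close to D2A1-m2 replicates 1 and 3 at 0.976.

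**Figure D1:**
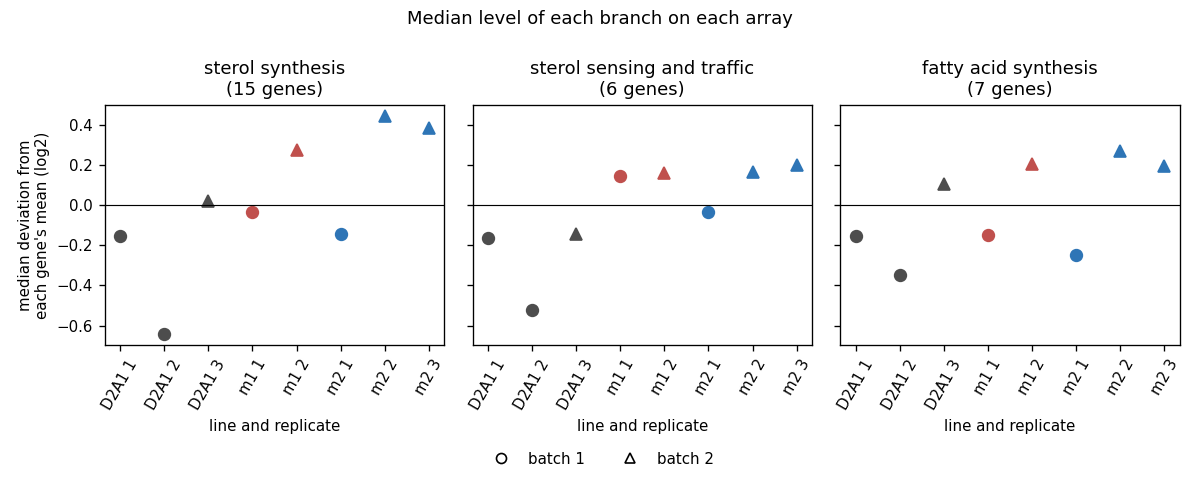
Median deviation of the genes of each role from their own mean over the 8 arrays, on the log2 scale, for each array; colours are the lines, circles batch 1 and triangles batch 2. D2A1 replicate 2 is lowest in each panel, at -0.64 for the sterol enzymes, and the triangles lie above the circles of the same line in the sterol and fatty acid panels.

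Against D2A1, 5 of the 28 measured genes were called in D2A1-m1, comprising 4 that rose and 1 that fell. Over all tested genes, 7.72% were called higher and 6.84% lower in this comparison (14.6% in either direction). The risen genes were Mvk, Ebp and Sc5d of sterol synthesis and the regulator Srebf1, and the fallen gene was the desaturase Fads2. In D2A1-m2, 2 genes rose, Mvk and Hsd17b7, against 8.87% of all genes called higher (16.2% in either direction). No member was called lower in D2A1-m2 by limma. At an unadjusted p under 0.05, 11 members were higher there and 1, Tm7sf2, was lower, and the share of all genes at this limit is not given. Over all genes 7.34% were called lower in D2A1-m2. In either direction, 17.9% of the measured members were called in D2A1-m1 and 7.14% in D2A1-m2. The share was thus near that of all genes in D2A1-m1 and below it in D2A1-m2. These shares rest on 5 and 2 genes, and no difference from all genes or between the sublines is read from them. Both comparisons used the same D2A1 arrays.

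Where the size of the change was disregarded, 6 of the 28 genes passed the adjusted p in D2A1-m1, against 22.5% of all genes, and 6 did so in D2A1-m2, against 28.9%. With an unadjusted p under 0.001 and 1.5-fold, 3 genes passed in D2A1-m1 (9.55% of all genes) and 1 in D2A1-m2 (11.7%). The D2A1-m1 arrays lay wholly above the D2A1 arrays for 8 of the 28 genes and wholly below for 1, against 19.6% and 19.8% of all genes. For D2A1-m2 these counts were 5 and 1, against 18.4% and 18%. A change above 0 was found for 25 of the 28 genes in D2A1-m1 and for 22 in D2A1-m2, against 50.7% and 49.7% of all genes.

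**Figure D2:**
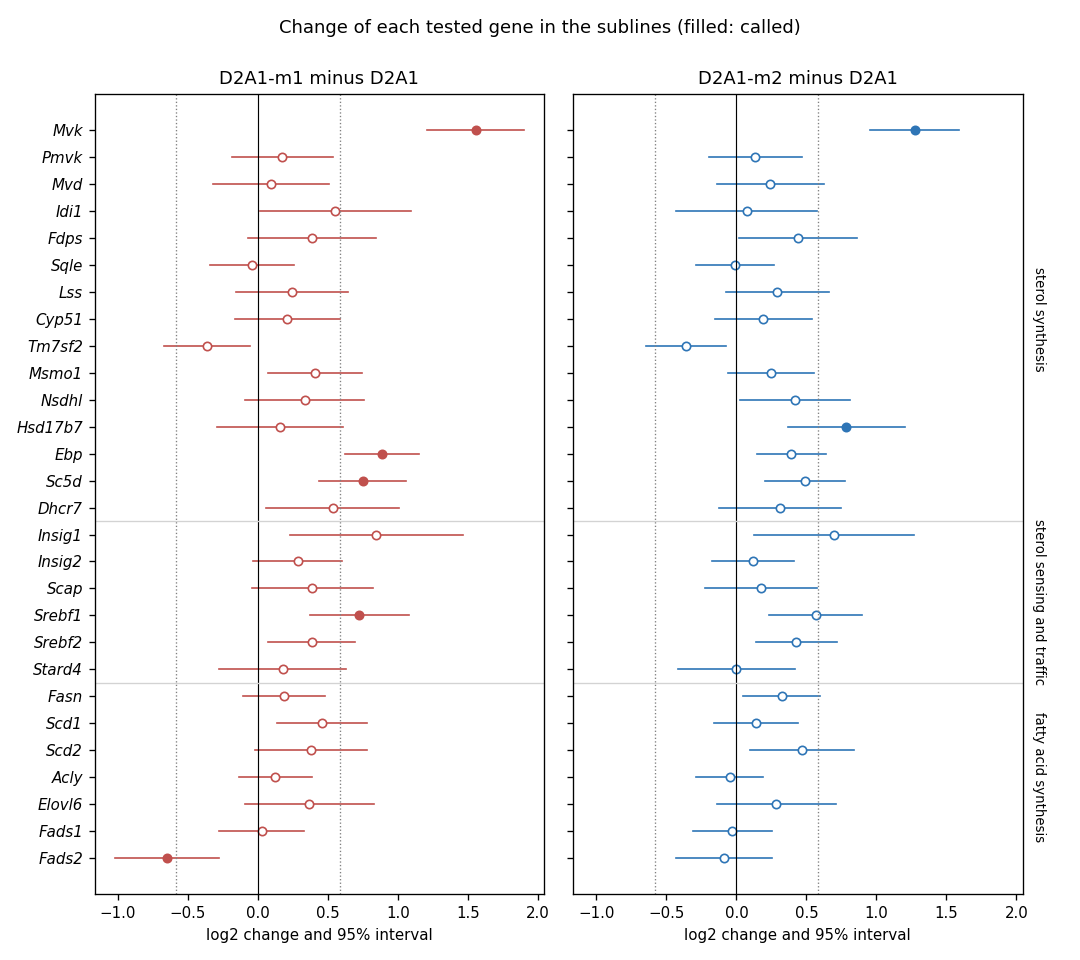
Log2 change of each of the 28 measured genes with its 95% interval, D2A1-m1 against D2A1 on the left and D2A1-m2 against D2A1 on the right, grouped by role; filled circles were called and dotted lines mark 1.5-fold. Mvk lies furthest to the right in both panels and Fads2 is the only filled circle left of 0.

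Mvk, mevalonate kinase, which phosphorylates mevalonate, had the largest change of the 28 genes in both comparisons. Its log2 signal was 5.35, 5.12 and 6.30 in D2A1 replicates 1 to 3. It was 6.94 and 7.61 in D2A1-m1, with 6.75, 7.27 and 7.35 in D2A1-m2. Every subline array lay above every D2A1 array. Mvk rose by 1.55 ± 0.15 (SE) on the log2 scale in D2A1-m1, or 2.94-fold (limma, adjusted p = 0.000176), and by 1.27 ± 0.14, or 2.42-fold, in D2A1-m2 (limma, adjusted p = 0.000327). The change was 1.70 within batch 1 and 1.31 within batch 2 for D2A1-m1, and 1.51 and 1.02 for D2A1-m2. The single Mvk probe passed the detection limit on 1 of the 3 D2A1 arrays and on all 5 subline arrays, so that the D2A1 level lies near background. On the authors' processed values the change was 0.57 in D2A1-m1 and 0.44 in D2A1-m2, under 1.5-fold and so not called.

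Mvk, Hsd17b7 and Ebp, which rose in at least 1 subline, are shown with Fads2, which fell in D2A1-m1, by the 300 bases around their transcription start, 250 before and 50 after it, from RefSeq on build GRCm38.p6 and read in the direction of the gene. The sequences were searched on both strands for CCAAT, the motif of NF-Y, and for GGGCGG, the motif of Sp1, both of which act beside SREBPs at sterol genes. Capitals mark the matches (ATTGG and CCGCCC are the same motifs on the other strand), and none overlapped another in these windows.
Mvk, chr5:114444019-114444318, plus strand: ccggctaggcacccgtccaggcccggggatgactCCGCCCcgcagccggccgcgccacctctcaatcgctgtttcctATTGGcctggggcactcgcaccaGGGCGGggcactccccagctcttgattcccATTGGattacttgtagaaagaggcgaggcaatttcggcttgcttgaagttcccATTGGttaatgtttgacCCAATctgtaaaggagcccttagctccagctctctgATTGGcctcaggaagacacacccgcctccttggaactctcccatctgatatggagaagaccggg
Hsd17b7, chr1:169969156-169969455, minus strand: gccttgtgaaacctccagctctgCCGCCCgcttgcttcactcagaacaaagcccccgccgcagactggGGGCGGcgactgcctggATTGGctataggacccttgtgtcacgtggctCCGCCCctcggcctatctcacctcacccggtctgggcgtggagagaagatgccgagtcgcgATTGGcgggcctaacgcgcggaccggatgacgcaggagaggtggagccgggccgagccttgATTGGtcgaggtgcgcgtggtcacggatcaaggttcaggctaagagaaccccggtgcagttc
Ebp, chrX:8193463-8193762, minus strand: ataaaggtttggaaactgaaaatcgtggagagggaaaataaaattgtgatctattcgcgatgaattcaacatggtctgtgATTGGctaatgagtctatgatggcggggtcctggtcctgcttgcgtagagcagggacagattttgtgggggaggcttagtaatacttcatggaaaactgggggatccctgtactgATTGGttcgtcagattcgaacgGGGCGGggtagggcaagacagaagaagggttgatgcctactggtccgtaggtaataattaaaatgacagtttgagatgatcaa
Fads2, chr19:10101454-10101753, minus strand: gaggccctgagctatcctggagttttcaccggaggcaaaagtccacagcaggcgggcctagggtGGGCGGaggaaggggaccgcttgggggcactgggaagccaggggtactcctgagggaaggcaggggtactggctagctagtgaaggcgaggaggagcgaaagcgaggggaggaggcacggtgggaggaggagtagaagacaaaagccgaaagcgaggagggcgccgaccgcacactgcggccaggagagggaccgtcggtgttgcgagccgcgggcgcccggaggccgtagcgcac

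The Mvk window held 5 CCAAT matches, that of Hsd17b7 3 and that of Ebp 2, and the Fads2 window held none. Of the other genes called higher, the Sc5d window held 1, and of 3 Srebf1 windows 2 held 1 each. Genes that were not called also held the motif, with 4 matches for Nsdhl and 3 each for Msmo1 and Fasn, so that the 4 windows shown do not stand for risen and fallen genes at large. Windows of 25 of the 32 genes were searched, and 21 of their 33 windows held CCAAT, against 37.4% of all 32851 windows. GGGCGG was found in 25 of the 33 windows, against 35.7% of all. The sterol regulatory element, searched as TCACNCCAC on both strands, was found in the window of 1 of these genes, Hmgcs1, and in 1.24% of all windows. Only exact matches of this pattern were sought, so that any other form of the element was missed. These are matches of letters and not measured binding.

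Among the steps that turn lanosterol into cholesterol, Ebp, which moves a double bond within the sterol ring, lay above D2A1 on every array of both sublines. Its signal was 10.28, 10.18 and 10.31 in D2A1, 11.06 and 11.27 in D2A1-m1, with 10.54, 10.75 and 10.82 in D2A1-m2. The 3 lines did not overlap, with D2A1-m1 highest and D2A1 lowest. Ebp rose by 0.89 ± 0.12 in D2A1-m1 (1.85-fold; limma, adjusted p = 0.00105). In D2A1-m2 its change was 0.39 ± 0.11 (limma, adjusted p = 0.0261), which was under 1.5-fold and so was not called. The difference between the sublines was 0.49 ± 0.12 (limma, adjusted p = 0.0487), likewise under 1.5-fold.

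Sc5d, a sterol desaturase that acts after Ebp, stood at 4.65, 4.82 and 5.46 in D2A1, 5.67 and 5.97 in D2A1-m1, with 5.26, 5.89 and 5.83 in D2A1-m2. Both D2A1-m1 arrays were above all D2A1 arrays, whereas D2A1-m2 replicate 1 was below D2A1 replicate 3. Sc5d rose by 0.75 ± 0.14 in D2A1-m1 (1.68-fold; limma, adjusted p = 0.00528), and its change in D2A1-m2 was 0.49 ± 0.13 (limma, adjusted p = 0.0194), under 1.5-fold. The probe was dim and passed the detection limit on 5 of the 8 arrays, of which 1 was D2A1. Without D2A1-m1 replicate 1, and also without background correction, Sc5d was no longer called in D2A1-m1, at 0.55 and 0.41. Without D2A1 replicate 3 its change in D2A1-m2 was 0.60 and was called (limma, adjusted p = 0.0457).

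Hsd17b7, a ketosteroid reductase of the removal of the methyl groups of lanosterol, showed the opposite order of sublines. Its signal was 8.56, 7.85 and 8.37 in D2A1, 8.47 and 8.41 in D2A1-m1, with 8.89, 9.24 and 9.16 in D2A1-m2. The D2A1-m2 arrays lay above all others, and D2A1-m1 lay within the D2A1 range. Hsd17b7 rose by 0.79 ± 0.18 in D2A1-m2 (1.72-fold; limma, adjusted p = 0.0127), and its change in D2A1-m1 was 0.16 ± 0.20. The sublines differed by -0.63 ± 0.20, D2A1-m1 minus D2A1-m2, with an adjusted p of 0.111 in limma. The call in D2A1-m2 was lost without D2A1 replicate 3, at a change of 0.79. Without D2A1 replicate 2 the difference between the sublines was -0.65 with an adjusted p of 0.0232 and was called.

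The other 11 measured enzymes of sterol synthesis were not called in either subline. The sterol enzymes nonetheless lay mostly on one side of 0, since 13 of the 15 had a change above 0 in each comparison. The median change of the 15 was 0.33 in D2A1-m1 and 0.29 in D2A1-m2, whereas that of all genes was 0.01 and -0.0035. For D2A1-m1 the median was 0.31 within batch 1 and 0.18 within batch 2. For D2A1-m2 it was 0.17 within batch 1 and 0.39 within batch 2. The exceptions in both comparisons were Sqle, the squalene epoxidase, at -0.04 and -0.01, and Tm7sf2, a sterol reductase, at -0.36 in each.

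Of the genes that make isoprenoid units, Pmvk, which acts on the product of Mvk, changed by 0.17 ± 0.16 and 0.13 ± 0.15 in D2A1-m1 and D2A1-m2. Mvd, the next enzyme, changed by 0.09 ± 0.18 and 0.24 ± 0.17. Mvk was thus called, and the enzymes directly after it were not. Idi1, the isomerase of isoprenoid units, was 6.46, 5.87 and 5.95 in D2A1, 7.05 and 6.07 in D2A1-m1, with 6.34, 6.09 and 5.54 in D2A1-m2. Its change in D2A1-m1 was 0.55 ± 0.24 (limma, adjusted p = 0.130), at 0.88 within batch 1 and 0.12 within batch 2, so that it rested largely on D2A1-m1 replicate 1.

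Fdps, which makes farnesyl diphosphate, measured 11.69, 10.99 and 12.07 in D2A1, 11.93 and 12.19 in D2A1-m1, with 11.79, 12.41 and 12.42 in D2A1-m2. The lines overlapped. Its changes were 0.39 ± 0.20 and 0.44 ± 0.19 (limma, adjusted p = 0.198 and 0.110). A second, dimmer Fdps probe changed by 0.61 ± 0.13 in D2A1-m1 and 0.42 ± 0.12 in D2A1-m2. It was called in D2A1-m1 in a fit over all kept probes (limma, adjusted p = 0.0118), where 12.3% of all probes were called.

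Nsdhl, a sterol dehydrogenase that acts with Hsd17b7, was 6.37, 5.68 and 6.40 in D2A1, 6.34 and 6.78 in D2A1-m1, with 6.39, 6.92 and 6.83 in D2A1-m2. It changed by 0.33 ± 0.19 and 0.42 ± 0.17 (limma, adjusted p = 0.231 and 0.102), and its 3 other kept probes changed by 0.07 to 0.27. Dhcr7, the last reductase of the pathway, was 6.23, 5.54 and 6.55 in D2A1, 6.42 and 7.14 in D2A1-m1, with 5.95, 6.98 and 7.18 in D2A1-m2. Both genes were lowest on D2A1 replicate 2. Dhcr7 changed by 0.53 ± 0.21 in D2A1-m1 (limma, adjusted p = 0.0987) and by 0.31 ± 0.19 in D2A1-m2. Without D2A1 replicate 1 its change in D2A1-m1 was 0.74 and was called (limma, adjusted p = 0.0128).

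Msmo1, which removes methyl groups from the sterol ring, changed by 0.41 ± 0.15 and 0.25 ± 0.14. Lss, which closes the ring to lanosterol, changed by 0.24 ± 0.18 and 0.29 ± 0.16, and Cyp51, the lanosterol demethylase, by 0.21 ± 0.17 and 0.19 ± 0.15. A second Lss probe, detected on 4 arrays, lay on the other side of 0, at -0.18 ± 0.13 and -0.01 ± 0.12. None of these was called. Tm7sf2 passed the detection limit on 1 array only, of D2A1.

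**Figure D3:**
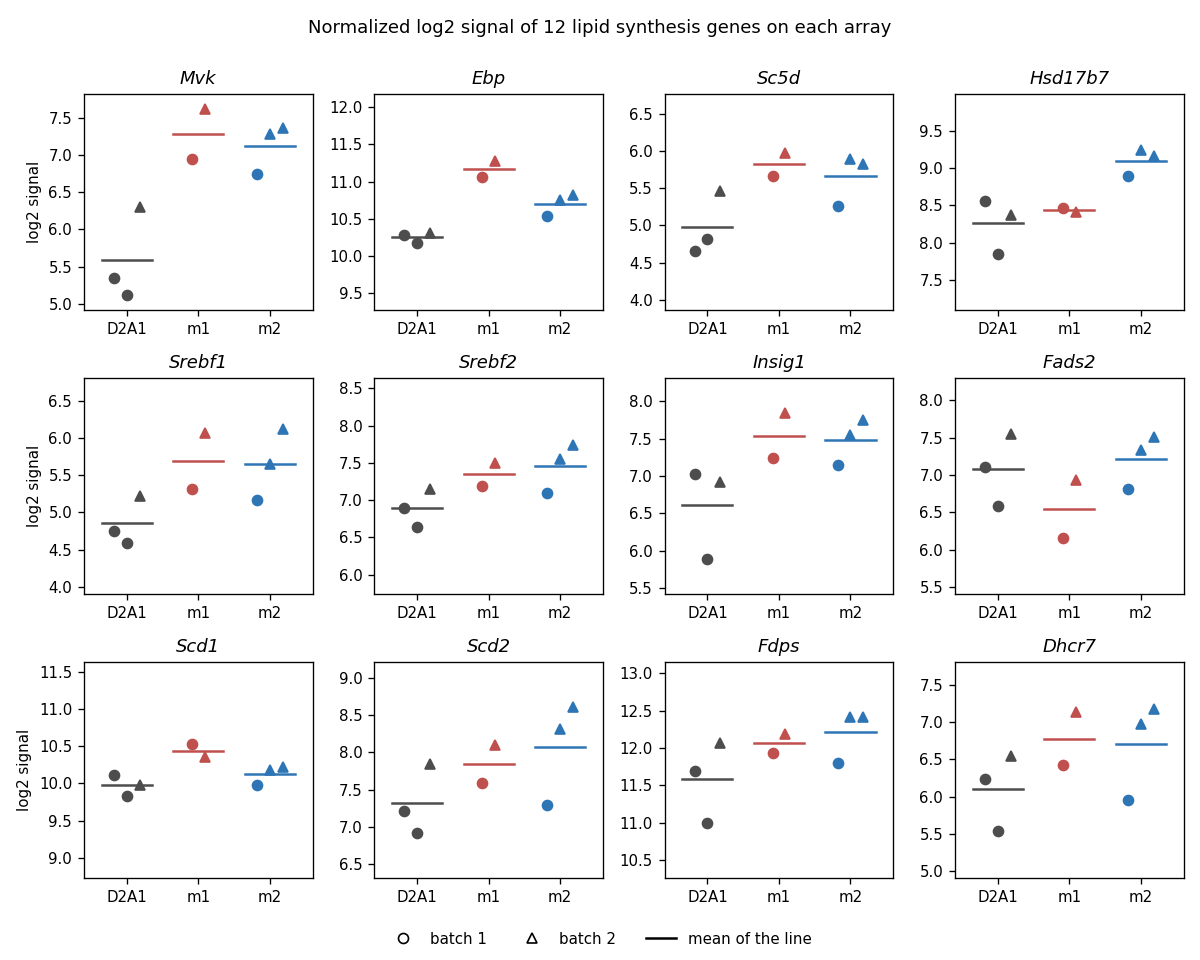
Normalised log2 signal of 12 of the genes on each of the 8 arrays by line, each panel spanning the same range of log2 units; circles are batch 1, triangles batch 2 and bars the mean of the line. Mvk, Ebp and Insig1 separate both sublines from D2A1, and Hsd17b7 separates D2A1-m2 from the other lines. D2A1 replicate 2, the middle D2A1 point, is the lowest of the 8 arrays in every panel except those of Sc5d and Fads2.

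Among the regulators, Srebf1, which encodes the SREBP-1 proteins, was 4.75, 4.59 and 5.23 in D2A1, 5.32 and 6.06 in D2A1-m1, with 5.17, 5.65 and 6.12 in D2A1-m2. The D2A1-m1 arrays lay above all D2A1 arrays, and D2A1-m2 replicate 1 lay just below D2A1 replicate 3. Srebf1 rose by 0.72 ± 0.16 in D2A1-m1 (1.65-fold; limma, adjusted p = 0.012). Its change in D2A1-m2 was 0.57 ± 0.15 (limma, adjusted p = 0.0194), just under 1.5-fold. The probe passed the detection limit on 1 D2A1, 1 D2A1-m1 and 2 D2A1-m2 arrays, and the call in D2A1-m1 was lost without background correction and on leaving out D2A1 replicate 3 or either D2A1-m1 array. Its change in D2A1-m2 reached 0.62 without D2A1 replicate 1 and 0.66 without D2A1-m2 replicate 2, and was then called.

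Srebf2, which encodes SREBP-2, the main regulator of sterol genes, was 6.90, 6.63 and 7.15 in D2A1, 7.20 and 7.49 in D2A1-m1, with 7.09, 7.55 and 7.74 in D2A1-m2. It changed by 0.38 ± 0.14 in D2A1-m1 (limma, adjusted p = 0.0781) and by 0.43 ± 0.13 in D2A1-m2 (limma, adjusted p = 0.0336), under 1.5-fold in both. D2A1-m1 lay above all D2A1 arrays, while 1 D2A1-m2 array overlapped with D2A1. A second Srebf2 probe changed by 0.39 ± 0.16 and 0.16 ± 0.14.

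Insig1, a sterol-sensing anchor of Scap that is itself induced by SREBPs, was 7.03, 5.89 and 6.92 in D2A1, 7.24 and 7.84 in D2A1-m1, with 7.15, 7.55 and 7.75 in D2A1-m2. All subline arrays lay above all D2A1 arrays, but D2A1 replicate 2 lay more than 1 log2 unit below the other D2A1 arrays. The changes of 0.84 ± 0.27 and 0.70 ± 0.25 were larger than 1.5-fold but were not called (limma, adjusted p = 0.0543 and 0.0675). Without D2A1 replicate 2 they were 0.57 and 0.45, and without D2A1 replicate 1 they were 1.14 and 0.96 and both were called. The change in D2A1-m1 was also called without background correction, at 0.65, and after scaling to the 75th percentile, at 0.85. The 2 other kept Insig1 probes changed by 0.68 and 0.69 in D2A1-m1 and by 0.56 and 0.48 in D2A1-m2.

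Insig2, the related anchor, was 8.95, 9.27 and 8.99 in D2A1, 9.51 and 9.11 in D2A1-m1, with 9.29, 9.06 and 8.97 in D2A1-m2. Scap, the escort, was 7.38, 6.85 and 6.88 in D2A1, 7.79 and 6.91 in D2A1-m1, with 7.30, 6.95 and 6.92 in D2A1-m2. For both genes the lines overlapped and D2A1-m1 replicate 1 was the highest array. Their changes were 0.28 ± 0.14 and 0.39 ± 0.19 in D2A1-m1, with 0.12 ± 0.13 and 0.18 ± 0.18 in D2A1-m2. Stard4, a carrier of cholesterol between membranes, changed by 0.18 ± 0.20 and -0.0006 ± 0.19.

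In the fatty acid branch, Fads2, the desaturase that begins the conversion of essential to longer polyunsaturated fatty acids, was lower in D2A1-m1. Its signal was 7.11, 6.58 and 7.55 in D2A1, 6.16 and 6.93 in D2A1-m1, with 6.81, 7.34 and 7.52 in D2A1-m2. The plain values overlapped, since each line was higher in batch 2, but D2A1-m1 was the lowest line within each batch. Fads2 fell by 0.65 ± 0.16 in D2A1-m1 (1.57-fold; limma, adjusted p = 0.0224), at -0.69 in batch 1 and -0.62 in batch 2. In D2A1-m2 it changed by -0.09 ± 0.15, and the difference between the sublines was -0.56 ± 0.16 (limma, adjusted p = 0.0892). A second Fads2 probe changed by -0.35 ± 0.15 in D2A1-m1 and was not called, and the call on the first was lost without the batch term, without background correction, and on leaving out D2A1 replicate 1 or 3 or either D2A1-m1 array.

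The stearoyl-CoA desaturases, which make monounsaturated fatty acids, were not called. Scd1 was 10.11, 9.83 and 9.98 in D2A1, 10.53 and 10.35 in D2A1-m1, with 9.98, 10.18 and 10.22 in D2A1-m2. D2A1-m1 lay above the other arrays, with a change of 0.46 ± 0.14 against D2A1 (limma, adjusted p = 0.0474), under 1.5-fold. Scd2 was 7.21, 6.92 and 7.84 in D2A1, 7.58 and 8.10 in D2A1-m1, with 7.30, 8.31 and 8.60 in D2A1-m2, and the lines overlapped. It changed by 0.38 ± 0.18 and 0.47 ± 0.16 (limma, adjusted p = 0.153 and 0.0611). Without D2A1-m2 replicate 1 the change in D2A1-m2 was 0.69 and was called (limma, adjusted p = 0.0461).

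Fasn, the fatty acid synthase, changed by 0.19 ± 0.13 and 0.32 ± 0.12, and its probe passed the detection limit on 1 array only, of D2A1-m2. Acly, which supplies acetyl-CoA to both branches, changed by 0.12 ± 0.12 and -0.05 ± 0.11. Elovl6, an elongase, changed by 0.37 ± 0.20 and 0.28 ± 0.19, and Fads1, the desaturase that follows Fads2, by 0.03 ± 0.13 and -0.03 ± 0.12. The 95% intervals of Acly and Fads1 excluded a change of 1.5-fold in either direction in both sublines. The median change of the 7 measured fatty acid genes was 0.19 in D2A1-m1 and 0.14 in D2A1-m2, compared with 0.39 and 0.30 for the 6 genes of sterol sensing and traffic.

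Between D2A1-m1 and D2A1-m2, none of the 28 genes was called by limma, against 4.27% of all genes (2% higher in D2A1-m1 and 2.27% lower). The difference was above 0 for 17 of the 28 genes, against 52% of all genes. Without regard to its size 1 gene passed the adjusted p, Ebp, against 4.99%, and none passed an unadjusted p under 0.001 with 1.5-fold, against 3.05%. The D2A1-m1 arrays lay wholly above those of D2A1-m2 for 2 genes, Ebp and Scd1, and wholly below for 1, Hsd17b7, against 14.4% and 14.7% of all genes. At an unadjusted p under 0.05, 1 gene was higher in D2A1-m1, Ebp, and 2 were lower, Hsd17b7 and Fads2. The share of all genes at this limit is not given. The methods' t-test with Benjamini-Hochberg adjustment, run on the values used here with the batch difference removed, also called none.

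A further difference ran across the lines. In the same fit, 9 of the 28 genes were called higher in batch 2 than in batch 1 and none lower, whereas 4.14% of all genes were called higher and 4.56% lower (8.69% in either direction). This comparison was added after the values had been seen. The 9 genes were Mvk, Mvd, Lss, Cyp51 and Dhcr7 of sterol synthesis, Srebf1, and Scd2, Elovl6 and Fads2 of fatty acid synthesis. The largest differences were those of Dhcr7 at 0.85 ± 0.17, Scd2 at 0.84 ± 0.14 and Elovl6 at 0.84 ± 0.16 (limma, adjusted p = 0.00986, 0.00637 and 0.00937). At an unadjusted p under 0.05, 17 genes were higher in batch 2 and 3 were lower, Idi1, Insig2 and Scap. The share of all genes at this limit is not given, so that these counts have no background beside them.

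The direction was shared by the lines. In all 3 lines at once, 20 of the 28 genes were higher in batch 2 than in batch 1, compared with 32.6% of all genes. Taken line by line, 23 were higher in D2A1, 21 in D2A1-m1 and 24 in D2A1-m2. The shares of all genes were 51.5%, 51.4% and 51.8%. Only Idi1, Tm7sf2, Insig2 and Scap were lower in batch 2 in each line. The median difference between batches was 0.51 for the sterol enzymes, 0.22 for sterol sensing and traffic and 0.43 for fatty acid synthesis, and 0.02 for all genes. For the sterol and fatty acid enzymes these medians were larger than the median changes of the sublines, and for sterol sensing and traffic they were smaller. The sources used here do not say what differed between the batches in culture or handling, so that these cannot be told apart.

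**Figure D4:**
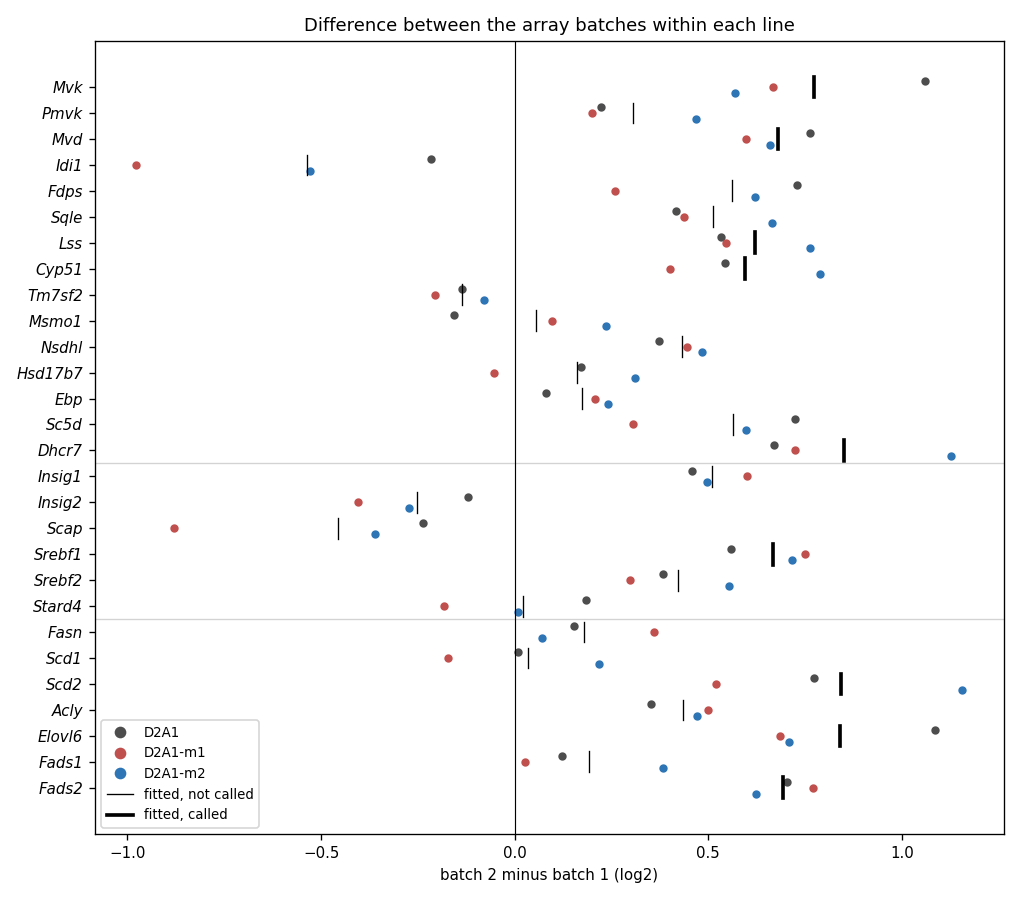
Batch 2 minus batch 1 on the log2 scale for each of the 28 genes, as coloured points for each line and a vertical bar for the fitted difference, thick where called; D2A1 has 2 arrays in batch 1 and D2A1-m2 has 2 in batch 2, and the other points rest on single arrays. Most points lie to the right of 0 in all lines, with Idi1, Tm7sf2, Insig2 and Scap to the left.

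Because D2A1 replicate 2 was low for these genes, the values were also taken without it. The median change of the sterol enzymes was then 0.17 in D2A1-m1 and 0.18 in D2A1-m2, in place of 0.33 and 0.29. That of the fatty acid genes was 0.14 in D2A1-m1 and 0.08 in D2A1-m2, in place of 0.19 and 0.14. The numbers called in the sublines stayed at 5 and 2, and the share of all genes called there without this array is not given. Without this array 6 genes were called higher in batch 2, Mvk, Dhcr7, Srebf1, Scd2, Elovl6 and Fads2, and 1 lower, Idi1, against 4.52% of all genes higher and 5.02% lower in that fit.

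Other genes of the pathways were taken from lists by role. For comparison, 14.6% of all tested genes were called in either direction in D2A1-m1 and 16.2% in D2A1-m2. Of the other sterol synthesis genes, 4 of 10 were measured, and Cyb5a, an electron donor for sterol desaturases, rose by 0.74 ± 0.13 in D2A1-m1 and 0.61 ± 0.12 in D2A1-m2 (limma, adjusted p = 0.00451 and 0.00599). Dhdds, which makes dolichol precursors, was detected in D2A1-m2 only and was called there, at least 1.17-fold higher than in D2A1, a bound taken against the lowest detected signal. Of the genes that process SREBPs or degrade sterol enzymes, 11 of 13 were measured, and only Rnf139, a ubiquitin ligase of the endoplasmic reticulum, was called, falling by 0.67 ± 0.12 in D2A1-m2 (limma, adjusted p = 0.00393).

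Of 16 genes of sterol uptake and traffic, 11 were measured and 2 rose in each subline. Gramd1b, which moves cholesterol from the plasma membrane to the endoplasmic reticulum, was not detected in D2A1 and was at least 2.51-fold higher in D2A1-m1 and at least 1.83-fold higher in D2A1-m2 (limma, adjusted p = 0.00027 and 0.00107). Lrp1, a lipoprotein receptor, was also called in both sublines but was not detected in D2A1, and it was detected on 1 of 2 D2A1-m1 arrays.

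Of 13 genes of the liver X receptors and sterol efflux, 4 were measured. Nr1h3, which encodes LXRα, a receptor for oxidised sterols that drives Srebf1 and sterol efflux in other cells, fell by 1.03 ± 0.12 in D2A1-m1 and by 1.65 ± 0.11 in D2A1-m2 (limma, adjusted p = 0.000566 and 1.95e-05), and was higher in D2A1-m1 than in D2A1-m2 by 0.62 ± 0.12 (limma, adjusted p = 0.0264). Nceh1, a cholesteryl ester hydrolase, rose by 0.90 ± 0.18 and 0.66 ± 0.16 (limma, adjusted p = 0.00754 and 0.0156). Srebf1, with a probe near background, was called higher in D2A1-m1 and changed by 0.57 in D2A1-m2, under 1.5-fold. A link between Nr1h3 and Srebf1 was not tested.

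Among 21 other measured genes of fatty acid synthesis, Acacb, the mitochondrial acetyl-CoA carboxylase, was detected in D2A1 only and was at least 1.66-fold lower in D2A1-m1 and at least 1.73-fold lower in D2A1-m2 (limma, adjusted p = 0.000675 and 0.000518). Mcat, of mitochondrial fatty acid synthesis, rose by 0.60 ± 0.13 in D2A1-m1 (limma, adjusted p = 0.00991), and Acsl4, which activates polyunsaturated fatty acids, rose by 0.80 ± 0.14 in D2A1-m2 (limma, adjusted p = 0.00297). Of 14 measured genes of fatty acid oxidation, only Acads, the short-chain acyl-CoA dehydrogenase, was called, and it fell by 0.71 ± 0.14 and 1.00 ± 0.13 (limma, adjusted p = 0.00864 and 0.000934).

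Of 12 measured genes of glycerolipid synthesis and lipid droplets, Agpat2, which makes phosphatidic acid, fell by 0.74 ± 0.12 and 0.92 ± 0.11 (limma, adjusted p = 0.00297 and 0.000528). Plin2, which coats lipid droplets, rose by 1.21 ± 0.14 in D2A1-m2 (limma, adjusted p = 0.000505) and the sublines differed by -0.69 ± 0.16, D2A1-m1 minus D2A1-m2 (limma, adjusted p = 0.0386). Its change in D2A1-m1 was 0.51 ± 0.16, under 1.5-fold. The lists other than the members thus held genes that moved in both directions.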

How the data were processed

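RNA from 3 D2A1, 2 D2A1-m1 and 3 D2A1-m2 cultures was hybridised to Illumina mouse bead arrays in 2 batches. The authors deposited intensity values per probe, neither background-subtracted nor normalised, and beside each intensity they deposited the detection p-value that compares the probe with the array's negative beads. A second deposited table holds the authors' processed values, close to log2, which the study's methods describe as filtered on detection, variance-stabilised and spline-normalised with lumi (version not given in the sources used here) and batch-corrected with ComBat. Their medians were 7.83 to 7.84 on all arrays, and they served as an alternative, without a batch term.

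The intensities were analysed with limma 3.58.1 under R 4.3.3 by the steps of neqc, normexp background correction from the detection p-values, an offset of 16, quantile normalisation and log2. Of 45281 probes, 16462 passed a detection p of 0.01 on 1 array or more. In the platform annotation 34885 probes name 1 gene, 18 several and 10378 none, and probes naming 1 gene were used. The kept probe of largest interquartile range stood for a gene. One limma model over all 8 arrays had terms for line and batch (4 residual degrees of freedom, 5.23 from the prior), with p-values adjusted over 9017 genes. The number of arrays limits the precision, and the median residual SD was 0.162. For a probe that no array of the dimmer line detected, the fold is a bound, the brighter mean over the lowest detected signal. The same code was tested on simulated data. Members and lists were chosen with earlier results of these data known. Values on every array were given for called members, for Srebf1, Srebf2, Scap, Insig1 and Insig2, and for the 6 other members of largest change, and in the other lists the called genes were named, at most 4 a list. Replicate numbers come from the labels. Alternatives changed the background correction, offset, scaling, filter, probe choice, batch term, replicate block, prior, threshold and test, and left out each array. The methods' t-test was run on the values used here after removal of the batch difference. No degree of freedom was spent on the batch, so that its spread may be understated. The study ran its t-test on its own ComBat-corrected values, with an unadjusted p.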

Additional observations from a re-analysis of the deposited data

Results flagged for a closer look

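Ebp was looked at again because the changes of the sublines against D2A1 differed by a test of the difference itself. The change in D2A1-m1 exceeded that in D2A1-m2 by 0.49 ± 0.12 on the log2 scale (limma, adjusted p = 0.0487), with both D2A1-m1 arrays above all 3 D2A1-m2 arrays, and it was 0.52 within batch 1 and 0.49 within batch 2. The difference was under 1.5-fold, and it was the only one of the 28 genes at this adjusted p.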

How the results depend on the processing

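With the main setting, 5 genes were called in D2A1-m1 against D2A1, 2 in D2A1-m2 and none between the sublines. The share of all genes called is not given for most of the alternatives. A shift in the count therefore need not be particular to these genes. In D2A1-m1 the count was 3 without background correction, 3 with an offset of 50, 2 without the batch term, 1 in batch 1 alone, 1 with the authors' processed values, 1 and 3 with the methods' t-test at an unadjusted p under 0.001 and after Benjamini-Hochberg, and 3 at that unadjusted p in limma. In D2A1-m2 it was 0 in batch 1 alone and with the authors' processed values, 5 in batch 2 alone, 1 with either form of the methods' t-test, 1 at an unadjusted p under 0.001 and 6 with any fold. Between the sublines it was 1 in batch 2 alone (Hsd17b7) and 1 with any fold (Ebp). A fit of 1 batch has 2 of the 3 lines at 1 array each and takes its spread from the 2 arrays of the third line and from the prior, so that the lone arrays are assumed to vary like that line. Leaving out 1 array gave 2 to 6 in D2A1-m1, 2 to 4 in D2A1-m2, and 0 to 1 between the sublines. The count in D2A1-m1 was 2 without D2A1-m1 replicate 1, 3 without D2A1-m1 replicate 2 and 3 without D2A1 replicate 3, the count in D2A1-m2 was 4 without D2A1 replicate 1, and that between the sublines was 1 without D2A1 replicate 2. Ebp kept its call in D2A1-m1 in 26 of 27 alternatives, and Mvk in 25 of 27 in each subline. The other calls were kept less often. In D2A1-m1, Sc5d kept its call in 18 of 27, Srebf1 in 17 and Fads2 in 11. In D2A1-m2, Hsd17b7 kept its call in 21 of 27. Sc5d, Srebf1, Fads2 and Hsd17b7 each lost it with the authors' processed values. With the authors' processed values the Mvk change was 0.57 in D2A1-m1 and 0.44 in D2A1-m2, under 1.5-fold, so that it was not called. Its call was also lost with the methods' t-test at an unadjusted p under 0.001 in D2A1-m1 and in batch 1 alone in D2A1-m2. No called gene changed sign in any alternative.

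Higher in batch 2 were 9 genes (4.14% of all genes), 3 without background correction (1.51%) and 4 to 11 on leaving out 1 array, with 5 without D2A1 replicate 3 (4.45%), 4 without D2A1-m2 replicate 1 (2.99%), 6 without either D2A1-m1 array (2.77%) and 11 without D2A1 replicate 1 (4.31%), all alternatives chosen after seeing the data.

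Median changes stayed above 0 in every alternative. That of the sterol enzymes was 0.162 in D2A1-m1 and 0.144 in D2A1-m2 with the authors' values, and 0.468 in D2A1-m2 without the batch term. With the authors' values those of sterol sensing and traffic were 0.165 in D2A1-m1 and 0.0915 in D2A1-m2, while that of fatty acid synthesis in D2A1-m2 was 0.0147. In batch 1 alone sterol sensing and traffic in D2A1-m1 was 0.54, and fatty acid synthesis was 0.0868 in D2A1-m1 and 0.00912 in D2A1-m2. In batch 2 alone sterol sensing and traffic in D2A1-m1 was 0.23. Fatty acid synthesis in D2A1-m1 was 0.28 without the detection filter. Leaving out 1 array gave 0.23 to 0.56 for sterol sensing and traffic in D2A1-m1.

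Deviations of same-numbered arrays from their line means correlated at r from -0.30 to 0.71 with the batch difference left in. With the batch removed, r ran from -0.43 to 0.32. Means of so few arrays cannot decide whether the numbers pair the samples. Blocking on the replicate number instead of the batch, 5 genes were called in D2A1-m2 and the fatty acid median in D2A1-m1 was 0.30. With the replicate block and batch, 1 gene (Hsd17b7) was called between the sublines and the sterol median in D2A1-m1 was 0.0701. The cause of these shifts was not tested. Signal near background limits Mvk, Sc5d, Srebf1, Fasn and Tm7sf2, whose probes were not detected on most D2A1 arrays.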
